A study of Homo sapiens with 4 samples.

Results

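Growth factors of the epidermal growth factor (EGF) family and the FGF19 axis were followed in MHCC-97H cells, an established metastatic human hepatocellular carcinoma (HCC) line, after exposure to migrasomes (Migs), large vesicles released by migrating cells. The genes were taken by name: 6 ligands of the EGF receptor (AREG, EREG, HBEGF, TGFA, BTC and EPGN), the neuregulin gene NRG1, the endocrine hormone gene FGF19, and KLB, which encodes its co-receptor. All 9 were found among the 58735 genes of the RNA-seq tables, and 8 of them passed the filter of at least 10 reads in at least 1 library, FGF19 being the exception. Wild-type cells received PBS, or 2 μg of Migs collected from MHCC-97H cells kept in normoxia (normo-Migs), from MHCC-97H cells kept in hypoxia (hypo-Migs), or from CD147-knockout MHCC-97H cells kept in hypoxia (CD147KO-Migs), and RNA was taken after 24 h. Here normo-Migs follows the labels and the supplementary methods, which give normoxia, while the main methods of the study name hypoxia for that group. The knockout concerned only the cells that released the Migs, so that the sequenced cells were wild type in all 4 conditions, and CD147KO-Migs differed from normo-Migs in both oxygen and genotype of the releasing cells. Each condition had 1 library, all with the same batch label, so no difference between conditions could be tested against the spread between replicates. The reads assigned to genes numbered 33882496 in the PBS library, and 34559968, 40285223 and 35043203 in those of normo-Migs, hypo-Migs and CD147KO-Migs.

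EGF family ligands are made as membrane-anchored precursors that proteases release from the cell surface, after which they bind receptors of the ERBB family on the same or neighbouring cells. AREG, TGFA and EPGN bind EGFR, HBEGF, BTC and EREG bind EGFR and ERBB4, and NRG1 binds ERBB3 and ERBB4. FGF19 is an intestinal hormone that acts on hepatocytes through FGFR4 and its co-receptor β-Klotho, the product of KLB, to restrain bile acid synthesis, and its gene lies beside CCND1 in a stretch of 11q13 that is amplified in some HCCs.

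In GRCh38, EPGN (ENSG00000182585, 4:74308473-74315307), EREG (ENSG00000124882, 4:74365143-74388751) and AREG (ENSG00000109321, 4:74445134-74455009) followed each other on the plus strand of chromosome 4, and BTC (ENSG00000174808, 4:74744759-74794686) lay beyond them on the minus strand. The 4 genes spanned 486.2 kb, with gaps of 49.8 kb between EPGN and EREG, 56.4 kb between EREG and AREG, and 290.0 kb between AREG and BTC. HBEGF (ENSG00000113070) lay at 5:140332843-140346631, TGFA (ENSG00000163235) at 2:70447280-70554193 and FGF19 (ENSG00000162344) at 11:69698232-69704642, all on the minus strand, and KLB (ENSG00000134962) at 4:39406853-39451536 on the plus strand. The principal transcripts of AREG, HBEGF and BTC have 6 exons, 5 of them coding, that of TGFA has 6, those of EREG, EPGN and KLB have 5 and that of FGF19 has 3 exons, all coding. The gene lengths used for the FPKM exceeded the coding sequence of each principal transcript, for AREG 1648 against 756 bases, so that exon sequence beyond it, such as UTRs, was part of the length. An intronic gene inside TGFA, TGFA-IT1, had at most 3 reads in a library.

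RefSeq promoter windows on GRCh38.p14, from 250 bases before to 50 bases after the start site, were matched for 7 of the 9 genes. They were searched on both strands for a cAMP response element (TGACGTCA), an AP-1 element (TGANTCA) and a TATA box (TATAAA), and no match of one motif lay within a match of another. The 250 bases before the start site are shown for the 3 adjacent ligand genes, whose levels differed between libraries in unlike ways, and for HBEGF, the EGFR ligand gene past 2-fold higher in every Mig library than in the PBS library. They lie at chr4:74308220-74308469 (EPGN, plus strand), chr4:74364895-74365144 (EREG, plus strand), chr4:74444886-74445135 (AREG, plus strand) and chr5:140346604-140346853 (HBEGF, minus strand), run 5′ to 3′ on the strand of the gene, and carry motif matches in capitals.
EPGN: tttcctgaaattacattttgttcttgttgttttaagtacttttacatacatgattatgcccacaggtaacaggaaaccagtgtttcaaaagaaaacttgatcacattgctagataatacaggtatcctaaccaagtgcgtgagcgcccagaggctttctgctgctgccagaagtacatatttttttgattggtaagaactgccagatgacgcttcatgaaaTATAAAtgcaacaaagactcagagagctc
EREG: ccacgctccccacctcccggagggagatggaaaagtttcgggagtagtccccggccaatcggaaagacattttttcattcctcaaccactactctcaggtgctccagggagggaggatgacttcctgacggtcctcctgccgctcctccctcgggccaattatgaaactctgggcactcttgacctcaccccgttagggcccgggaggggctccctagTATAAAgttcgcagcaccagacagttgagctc
AREG: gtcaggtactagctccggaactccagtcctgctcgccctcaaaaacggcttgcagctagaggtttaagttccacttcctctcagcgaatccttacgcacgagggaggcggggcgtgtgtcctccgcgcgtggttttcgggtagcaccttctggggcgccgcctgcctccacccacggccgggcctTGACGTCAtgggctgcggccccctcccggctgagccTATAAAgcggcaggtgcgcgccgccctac
HBEGF: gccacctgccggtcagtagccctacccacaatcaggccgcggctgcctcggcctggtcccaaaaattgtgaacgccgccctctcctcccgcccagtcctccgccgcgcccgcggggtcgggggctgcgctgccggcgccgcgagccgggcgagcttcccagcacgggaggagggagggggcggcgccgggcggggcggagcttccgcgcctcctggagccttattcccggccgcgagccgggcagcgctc

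EPGN, EREG and AREG each held a TATA box, starting 29, 32 and 29 bases before the start site, a motif found in 11.5% of 35116 RefSeq promoter windows of the same length. AREG also held a cAMP response element that started 65 bases before the start site, and 1.85% of the windows had one. The AP-1 element, present in 7.71% of windows, was matched in none of the 7 genes, and HBEGF, TGFA, BTC and KLB had no match of any of the 3 motifs. GC content of the windows was 37.7% for EPGN, 57.7% for EREG, 66.3% for AREG and 75.0% for HBEGF. A match describes the letters of a window and shows no bound factor.

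Before the ligands were compared, the libraries were checked against their labels. The library labelled PBS stood apart: 251 genes had at most 3 reads in it and at least 100 in each Mig library, whereas no such gene set any Mig library apart from the other 3 libraries. Mitochondrial genes took 2.69% of its reads, and 5.00%, 5.16% and 5.06% of those of normo-Migs, hypo-Migs and CD147KO-Migs. Of the 11 hepatocyte and HCC markers, ALB, AFP, APOB, TTR and GPC3 had 0 reads in every library, and the summed level of the list was 0.680 FPKM (fragments per kilobase of gene, scaled for depth) in the PBS library and 0.709, 0.970 and 0.846 FPKM in the normo-Migs, hypo-Migs and CD147KO-Migs libraries. HNF4A, a hepatocyte transcription factor, was the most abundant of them at 0.530 to 0.831 FPKM, so the defining markers of hepatocytes were at or near 0 in these cells. The 7 epithelial markers summed to 1267 FPKM in the PBS library and to 1244, 1356 and 1432 FPKM in the Mig libraries, with KRT8 or KRT18 on top; CDH1 and EPCAM were past 2-fold higher and KRT7 and KRT19 lower in all 3 Mig libraries, CDH1 being at 0 reads with PBS.

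Other marker lists moved between the PBS library and the Mig libraries. Over all genes tested, 14.2% were past 2-fold higher and 7.10% lower in all 3 Mig libraries, beside which the counts of these small lists are given. The 6 cholangiocyte markers summed to 473 FPKM for PBS and to 138, 125 and 125.0 FPKM for normo-Migs, hypo-Migs and CD147KO-Migs, led by KRT7, and 2 of the 6 (SOX9 and SPP1) were past 2-fold higher and 2 (KRT7 and KRT19) lower in all 3 Mig libraries. KRT19, a keratin of this list, had 11287 reads in the PBS library against 75, 52 and 32 in the Mig libraries. The 9 fibroblast and stellate markers summed to 3.20 FPKM for PBS and to 27.3, 28.97 and 29.2 FPKM for normo-Migs, hypo-Migs and CD147KO-Migs, led by COL1A1, and 5 of the 7 tested were past 2-fold higher in all 3 Mig libraries, while COL1A2, a defining collagen gene, had 0 reads in all 3. Endothelial markers summed to between 0.578 and 0.881 FPKM, with 1 of 4 tested higher and 1 lower in all 3 Mig libraries and CDH5 or PECAM1 on top. Immune markers summed to between 0.493 and 2.06 FPKM, with 2 of 3 tested higher, CD14 on top and PTPRC at 0 to 2 reads. These differences separate the PBS library from the 3 Mig libraries exactly as the treatment does, so library and treatment cannot be told apart in any comparison with PBS, and the part of the marker changes in the ligand results was not tested. The labels give MHCC-97H for all 4 libraries, and whether the cells of each library were of that line was not tested. The genes are therefore also compared among the 3 Mig libraries alone. In bulk RNA, fewer cells of a type and less RNA per cell cannot be told apart.

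Of the 8 genes tested, HBEGF was past 2-fold higher and NRG1 past 2-fold lower in each of the 3 Mig libraries than in the PBS library, and EREG was lower in all 3 by 1.88 to 2.38-fold. EPGN was 1.75 to 1.88-fold higher, whereas TGFA, BTC and AREG differed from PBS by less than 2-fold. A gene was counted as past 2-fold when its log2 fold change was at least 1 in size. The count was 1 higher (HBEGF) and 1 lower (NRG1) of 8 for normo-Migs against PBS, where 30.2% of 19895 genes were past 2-fold in either direction, 18.1% higher and 12.0% lower. It was 1 higher (HBEGF) and 2 lower (EREG and NRG1) for hypo-Migs, against 30.5% of all genes (18.9% higher and 11.6% lower), and 2 higher (HBEGF and KLB) and 1 lower (NRG1) for CD147KO-Migs, against 30.3% (18.3% higher and 12.0% lower). In all 3 comparisons at once, 14.2% of genes were higher and 7.10% lower (12.4% and 4.69% of the 13601 genes averaging 50 reads or more), and 1 of the 8 genes stood in each class. The median log2 fold change of the 8 genes against PBS was 0.07, 0.44 and 0.36 in the order normo-Migs, hypo-Migs and CD147KO-Migs, beside 0.03, 0.04 and 0.03 for all genes. The 3 comparisons share the PBS library, so that they do not repeat each other independently. On the log2(FPKM + 1) scale, HBEGF was past 2-fold higher than PBS only with normo-Migs, and NRG1 was past 2-fold lower in no Mig library. With edgeR's exact test at an assumed coefficient of variation of 0.4, neither gene was called against PBS.

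Among the Mig libraries alone, HBEGF, NRG1 and EREG differed less than they did from PBS, while AREG differed more, with log2 fold changes of 0.81 for hypo-Migs against normo-Migs and -0.88 for normo-Migs against CD147KO-Migs, and KLB about as much, up to -1.23. None of the 8 was past 2-fold for hypo-Migs against normo-Migs, where 9.34% of all genes were, or for hypo-Migs against CD147KO-Migs, where 9.12% were. KLB alone was past 2-fold for normo-Migs against CD147KO-Migs, being lower, where 9.69% of all genes were past 2-fold and 4.96% lower. Most of those genes had few reads: of the 13601 genes averaging 50 reads or more, 0.647%, 0.544% and 0.691% were past 2-fold in the same 3 comparisons, and 20.3%, 20.6% and 20.6% in the comparisons of normo-Migs, hypo-Migs and CD147KO-Migs with PBS. The 8 ligand and axis genes had median log2 fold changes of 0.07, -0.06 and 0.06 in the 3 comparisons among Migs, beside 0.00 for all genes in each.

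**Figure D1:**
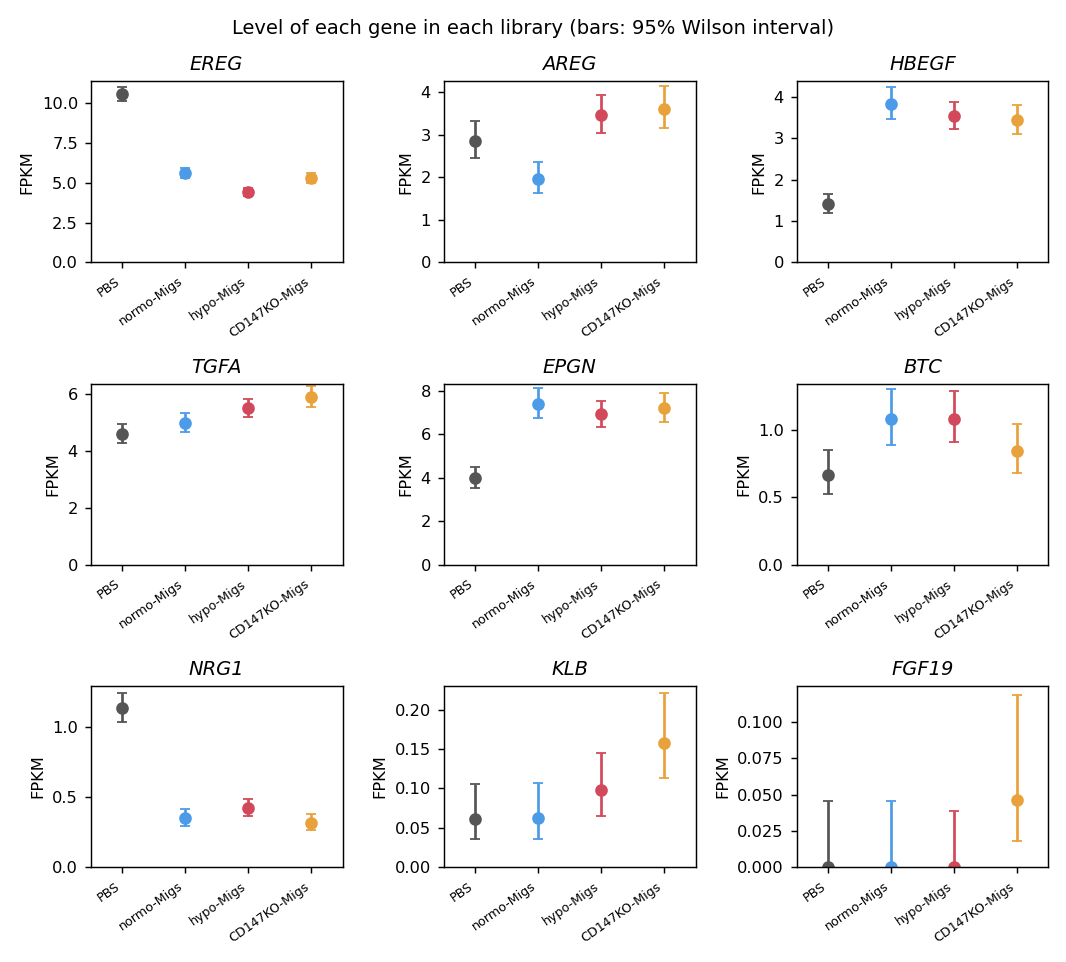
Level of each of the 9 genes in FPKM (vertical axes, each starting at 0 with its own range) in the 4 libraries (horizontal axes). Points are the single library of each condition and bars its 95% Wilson interval, which covers counting error only. EREG and NRG1 sit highest in the PBS library, HBEGF and EPGN lowest there, AREG is lowest for normo-Migs, and FGF19 is at 0 in 3 libraries.

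EREG, which encodes epiregulin, was the most abundant of the 9 genes per length in the PBS library, at 10.6 FPKM. Its 2094 reads there compared with 1101, 1022 and 1073 in the normo-Migs, hypo-Migs and CD147KO-Migs libraries, or 5.60, 4.42 and 5.31 FPKM, so that PBS lay above all 3 Mig libraries and hypo-Migs lowest. The level was 1.88-fold lower than PBS in the normo-Migs library (exact 95% interval of the ratio of reads 1.74 to 2.02), 2.38-fold lower (2.21 to 2.57) in the hypo-Migs library and 1.98-fold lower in the CD147KO-Migs library (1.84 to 2.13). These intervals, here and below, cover counting error only, since reads amplified by PCR without molecular identifiers are not independent molecules and the libraries had no replicates. With total reads as the only scaling, or with protein-coding genes only, EREG was past 2-fold lower with CD147KO-Migs as well. Among Mig libraries, hypo-Migs lay below normo-Migs by a log2 difference of -0.34 (-0.47 to -0.22) and below CD147KO-Migs by one of -0.27 (-0.39 to -0.14), whereas normo-Migs differed from CD147KO-Migs by 0.08 (-0.05 to 0.20).

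AREG, the amphiregulin gene, which comes after EREG on chromosome 4, showed another order. It had 163 reads in the PBS library and 111, 231 and 211 in the normo-Migs, hypo-Migs and CD147KO-Migs libraries, or 2.86, 1.96, 3.46 and 3.62 FPKM. The normo-Migs library was thus the low one, and PBS lay within the range of the Mig libraries. AREG was 1.77-fold higher with hypo-Migs than with normo-Migs (1.40 to 2.24) and 1.85-fold lower with normo-Migs than with CD147KO-Migs (1.46 to 2.35), and neither difference reached 2-fold. Hypo-Migs and CD147KO-Migs differed by a log2 fold change of -0.07 (-0.34 to 0.21). Log2 fold changes of normo-Migs, hypo-Migs and CD147KO-Migs against PBS were -0.53 (-0.90 to -0.18), 0.28 (-0.01 to 0.58) and 0.35 (0.05 to 0.66). Of the 13601 genes averaging 50 reads or more, 1.24% differed at least as far as AREG between hypo-Migs and normo-Migs, 1.13% between normo-Migs and CD147KO-Migs, and 33 genes, or 0.243%, lay as far below both others with normo-Migs. These shares describe the libraries and are not a test.

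EPGN, the epigen gene at the other side of EREG, had 249 reads in the PBS library against 461, 508 and 461 with normo-Migs, hypo-Migs and CD147KO-Migs. Its level was 3.97 FPKM for PBS and 7.39, 6.92 and 7.19 FPKM for the Mig libraries, which made it the most abundant of the 9 genes in each of them. It was higher than PBS by 1.88-fold (1.60 to 2.20), 1.75-fold (1.505 to 2.05) and 1.82-fold (1.56 to 2.14), short of 2-fold in each library. The Mig libraries were close to one another, the highest being 1.07 times the lowest. BTC, the betacellulin gene at the far end of the cluster, was scarcer, with 65, 104, 123 and 84 reads for PBS, normo-Migs, hypo-Migs and CD147KO-Migs, or 0.667, 1.07, 1.08 and 0.844 FPKM. It was 1.62-fold higher with normo-Migs (1.18 to 2.24) and 1.63-fold higher with hypo-Migs (1.20 to 2.23) than with PBS. With CD147KO-Migs the ratio to PBS was 1.27 (0.910 to 1.79), an interval that includes no change. Among the Mig libraries the log2 fold changes of BTC were 0.01 (-0.38 to 0.40) for hypo-Migs against normo-Migs, 0.35 (-0.06 to 0.77) for hypo-Migs against CD147KO-Migs and 0.34 (-0.08 to 0.78) for normo-Migs against CD147KO-Migs, all with intervals that include 0.

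HBEGF encodes heparin-binding EGF-like growth factor, whose precursor is also the receptor for diphtheria toxin. It had 146 reads in the PBS library and 398, 432 and 367 with normo-Migs, hypo-Migs and CD147KO-Migs, or 1.40 FPKM against 3.84, 3.54 and 3.44. PBS lay below all 3 Mig libraries, and HBEGF was the only one of the 6 EGFR ligand genes past 2-fold higher in each, by 2.76-fold (2.28 to 3.36), 2.54-fold (2.10 to 3.09) and 2.48-fold (2.04 to 3.02). Among the Mig libraries the log2 fold changes were -0.12 (-0.32 to 0.08) for hypo-Migs against normo-Migs, 0.04 (-0.17 to 0.24) for hypo-Migs against CD147KO-Migs and 0.16 (-0.05 to 0.37) for normo-Migs against CD147KO-Migs, all within counting error of 0. TGFA, which encodes transforming growth factor alpha, stayed closer to its PBS level, with 789, 851, 1104 and 1034 reads for PBS, normo-Migs, hypo-Migs and CD147KO-Migs, or 4.597, 4.99, 5.49 and 5.89 FPKM. Its log2 fold changes against PBS were 0.13 (-0.01 to 0.27), 0.27 (0.13 to 0.40) and 0.37 (0.23 to 0.50). Among the Mig libraries TGFA was lowest with normo-Migs, at -0.24 (-0.37 to -0.11) against CD147KO-Migs, while hypo-Migs differed from normo-Migs by 0.14 (0.01 to 0.27) and from CD147KO-Migs by -0.10 (-0.23 to 0.02).

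NRG1 (ENSG00000157168, 8:31639386-32767959, plus strand) has 10 transcripts in the basic set of the GENCODE annotation, which the gene-level reads did not separate. It had 445 reads in the PBS library and 136, 194 and 127 with normo-Migs, hypo-Migs and CD147KO-Migs, or 1.14 FPKM against 0.349, 0.423 and 0.317. The Mig libraries were all low and did not reach the PBS level. NRG1 was 3.23-fold lower than PBS (2.66 to 3.94) in the normo-Migs library, 2.67-fold (2.25 to 3.17) in the hypo-Migs library and 3.56-fold (2.91 to 4.37) in the CD147KO-Migs library. Within the Mig libraries hypo-Migs was the highest, with a log2 fold change of 0.41 (0.08 to 0.75) against CD147KO-Migs and of 0.27 (-0.05 to 0.60) against normo-Migs.

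**Figure D2:**
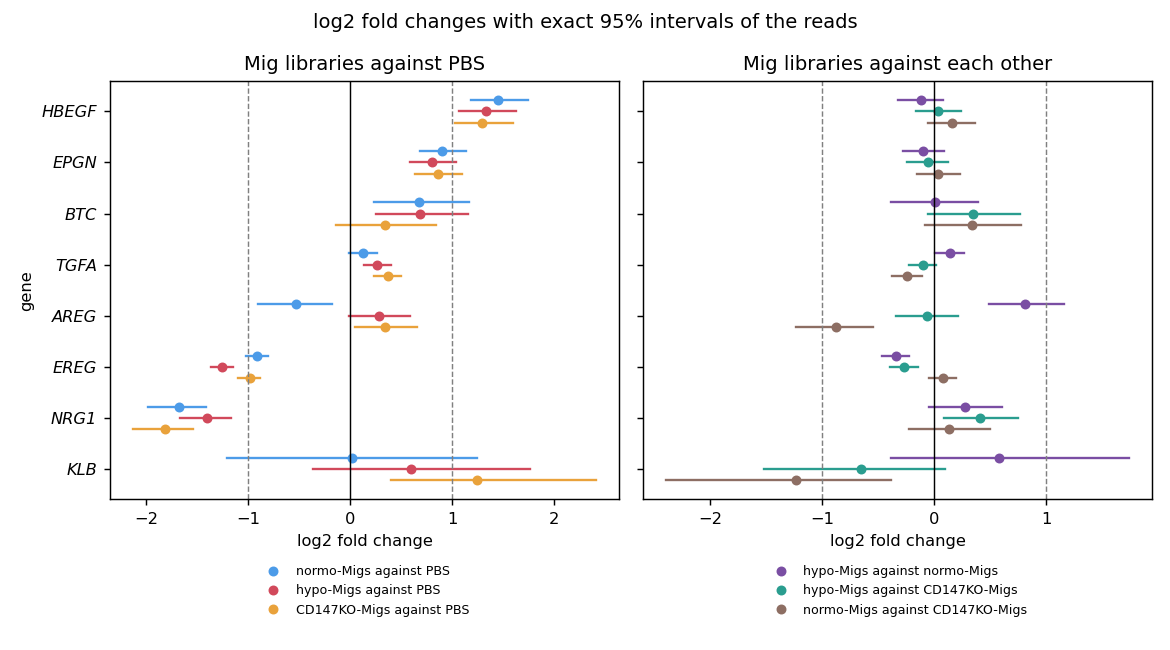
Log2 fold changes (horizontal axes) of the 8 genes with enough reads (vertical axis), against PBS on the left and between Mig libraries on the right; points are the fitted values, lines the exact 95% intervals of the ratio of reads, and dashed lines mark 2-fold. HBEGF lies beyond 2-fold on the high side and NRG1 on the low side in all 3 comparisons with PBS, whereas on the right only KLB passes 2-fold and AREG is the next farthest from 0.

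The 6 ligands of EGFR together kept about the same summed level while its composition changed. They summed to 24.1 FPKM in the PBS library and to 24.9, 24.9 and 26.3 FPKM in the normo-Migs, hypo-Migs and CD147KO-Migs libraries. EREG made up 44.0% of that sum in the PBS library and 22.5%, 17.7% and 20.2% with normo-Migs, hypo-Migs and CD147KO-Migs. EPGN went from 16.5% to 29.7%, 27.8% and 27.3%, and HBEGF from 5.81% to 15.4%, 14.2% and 13.1%. TGFA stayed between 19.1% and 22.4% in the 4 libraries, and AREG was at 11.9%, 7.88%, 13.9% and 13.8% in the same order. In the PBS library the order of levels was EREG, TGFA, EPGN, AREG, HBEGF, NRG1 and BTC, where the intervals of TGFA and EPGN and those of HBEGF and NRG1 overlapped. In the Mig libraries EPGN came first. EREG and then TGFA followed with normo-Migs, with overlapping intervals, and TGFA and then EREG with hypo-Migs, where the intervals did not overlap, and with CD147KO-Migs, where they did. HBEGF came next with normo-Migs, while its interval overlapped that of AREG in the other 2 Mig libraries, and BTC, NRG1, KLB and FGF19 closed the order in all 3.

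FGF19 was not detectable at this depth in 3 of the 4 libraries. It had 0 reads for PBS, normo-Migs and hypo-Migs, where a count of 0 allows up to 0.0885, 0.0868 and 0.0745 CPM (counts scaled to 1000000 reads; 3 reads), and 4 reads, or 0.0462 FPKM, for CD147KO-Migs. The exact interval of the ratio of CD147KO-Migs to PBS began at 0.651-fold and so included no change, and no difference in FGF19 was detectable at this depth. KLB was also scarce, with 13, 13, 24 and 34 reads for PBS, normo-Migs, hypo-Migs and CD147KO-Migs, or 0.0618, 0.0622, 0.0975 and 0.158 FPKM. CD147KO-Migs was the highest, at 2.58-fold over PBS (1.33 to 5.32) and 2.54-fold over normo-Migs (1.31 to 5.25), and its interval against hypo-Migs included no change, with a log2 fold change of -0.65 (-1.52 to 0.10) for hypo-Migs against it. On the log2(FPKM + 1) scale, which compresses low genes, the difference of CD147KO-Migs from PBS in KLB was 0.13.

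FGFR4, the liver receptor of FGF19, had 895, 812, 975 and 851 reads for PBS, normo-Migs, hypo-Migs and CD147KO-Migs, with log2 fold changes against PBS of -0.12 (-0.26 to 0.02), -0.09 (-0.23 to 0.04) and -0.09 (-0.23 to 0.04). Of the 6 tested genes in a list of 9 endocrine FGFs, FGF receptors and klotho genes, 2 were past 2-fold higher in all 3 Mig libraries and 0 lower, beside 14.2% and 7.10% of all genes. One was FGFR1, a receptor for many FGFs, with 906 reads in the PBS library and 2409, 2558 and 2263 in the Mig libraries. The other, named although it fell short of 50 reads, was FGFR2, with 0, 16, 9 and 6 reads. Against the 3 reads that the PBS library allows, the 6 reads with CD147KO-Migs were at least 1.97-fold higher, so that its call there rests on the prior count of 2. FGF21, another hormone that needs β-Klotho, had 2 reads with hypo-Migs and 0 elsewhere. Among 12 bile acid and FXR genes 7 were tested, and CYP7A1 and CYP8B1, enzymes of bile acid synthesis, had 0 reads in every library. NR1H4, which encodes the bile acid receptor FXR, was the 1 gene of the 7 past 2-fold higher in all 3, with 0, 11, 11 and 11 reads, also short of the 50 reads. Around FGF19 at 11q13, 10 genes were in the table and 7 were tested, of which MYEOV (18, 1319, 1344 and 1113 reads) and SHANK2 (2, 922, 942 and 923 reads) were past 2-fold higher in all 3 Mig libraries. CCND1, which encodes cyclin D1, lies beyond LTO1 from FGF19 and had 5044 reads in the PBS library and 9636, 10782 and 9423 in the Mig libraries. Its log2 fold changes against PBS were 0.95 (0.90 to 1.00), 0.88 (0.83 to 0.93) and 0.88 (0.83 to 0.93), short of 2-fold.

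The receptors of the EGF family ligands also differed between PBS and Mig libraries, and of the 4 ERBB genes 2 were past 2-fold higher and 1 lower in all 3 comparisons, as were 14.2% and 7.10% of all genes tested. EGFR, the receptor shared by the 6 ligands, had 21254 reads in the PBS library and 9352, 11108 and 9619 with normo-Migs, hypo-Migs and CD147KO-Migs, or 49.1 FPKM against 21.7, 21.9 and 21.7. Its log2 fold changes were -1.17 (-1.20 to -1.13), -1.15 (-1.19 to -1.12) and -1.16 (-1.20 to -1.13), and the Mig libraries differed from each other by at most 0.01 on that scale. ERBB3 was higher, with 284 reads for PBS and 689, 788 and 641 for the Mig libraries, and so was ERBB4, with 30 reads for PBS and 75, 98 and 88 for the Mig libraries. ERBB2, which has no known ligand and pairs with the other receptors, had 1969, 2931, 3093 and 3137 reads and log2 fold changes of 0.59, 0.43 and 0.65, short of 2-fold. NRG1 and EGFR were thus low, and ERBB3 and ERBB4 high, in the same 3 libraries.

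Of the other EGF family ligands, 3 of 4 were tested. In all 3 Mig libraries 1 was past 2-fold higher than PBS (NRG2) and 2 lower (EGF and NRG4), beside 14.2% and 7.10% of all genes. EGF itself had 80 reads in the PBS library and 11, 30 and 34 with normo-Migs, hypo-Migs and CD147KO-Migs, lower than PBS by log2 fold changes of -2.65, -1.56 and -1.21. It was also lower with normo-Migs than with hypo-Migs, hypo-Migs lying 1.09 (0.17 to 2.36) above normo-Migs on the log2 scale, and than with CD147KO-Migs, the difference of normo-Migs from it being -1.44 (-2.72 to -0.57). For hypo-Migs against normo-Migs and normo-Migs against CD147KO-Migs, 9.34% and 9.69% of all genes were past 2-fold. NRG4, a ligand of ERBB4, had 1068 reads for PBS and 451, 526 and 423 for the Mig libraries, past 2-fold lower in all 3. NRG2, a ligand of ERBB3 and ERBB4, had 0 reads for PBS and 111, 130 and 108 for the Mig libraries, at least 37.5-fold, 37.3-fold and 35.5-fold higher than the 3 reads that the PBS library allows. NRG3 had 0 reads in every library.

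Among 14 genes of ligand trafficking and shedding, 3 were past 2-fold higher in all 3 Mig libraries and 0 lower, beside 14.2% and 7.10% of all genes. FURIN, a protease that matures the shedding metalloproteases, had 6576 reads in the PBS library and 18332, 21950 and 20534 in the Mig libraries, or 2.82-fold (2.75 to 2.91), 2.87-fold (2.79 to 2.95) and 3.08-fold (2.99 to 3.16) higher. ADAM12 had 2 reads for PBS and 250, 397 and 304 for the Mig libraries, and ADAM19, like ADAM12 a metalloprotease, had 2 reads for PBS and 663, 630 and 611 for the Mig libraries. ADAM17, the principal sheddase of AREG, TGFA and HBEGF, had 1530, 1529, 1868 and 1447 reads and log2 fold changes of 0.02, 0.07 and -0.10 against PBS.

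Of 18 ERBB and MAPK feedback inhibitors, 2 were past 2-fold higher in all 3 Mig libraries and 0 lower, a share no larger than the 14.2% of all genes that were higher. SPRY4, an inhibitor of receptor tyrosine kinase signalling, had 40 reads for PBS and 316, 375 and 300 for the Mig libraries. DUSP4, a phosphatase of MAP kinases, had 569 reads for PBS and 1515, 1664 and 1398 for the Mig libraries. The median log2 fold change of the 18 against PBS was 0.01, 0.00 and 0.03 for normo-Migs, hypo-Migs and CD147KO-Migs. Of 15 tested early response genes of the MAPK pathway, 2 were past 2-fold lower in all 3 and 0 higher, where 7.10% of all genes were lower. These were FOSL1, a subunit of AP-1, with 1500 reads for PBS and 413, 462 and 427 for the Mig libraries, and the ETS factor gene ETV5, with 1896 reads for PBS and 927, 846 and 750 for the Mig libraries. The median of the 15 was 0.57, 0.17 and 0.22 in the same order. These lists were small, and their shares were not tested against those of all genes.

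The genes with the pattern most like each ligand over the 4 libraries were taken from 12187 protein-coding genes averaging 50 reads or more, by the Euclidean distance between centred log2 profiles. For HBEGF they were DUSP4 (distance 0.0214), IGSF3 (0.0430) and FGFR1 (0.0478), of which DUSP4 and FGFR1 are described above. For NRG1 they were the keratin gene KRT16 (0.0419), the forkhead factor gene FOXQ1 (0.0965) and FAM83B (0.132). For EREG they were TSPAN10 (0.0744), THAP8 (0.0767) and C9orf116 (0.0831), for EPGN RAMACL (0.0134), RHOC (0.0219) and ZNF703 (0.0307), and for BTC B3GNT2 (0.0734), CAPS2 (0.0737) and PRXL2C (0.0804). TGFA was nearest to MDM1 (0.0130), RCBTB1 (0.0258) and ARMC9 (0.0340). AREG had the most distant nearest gene, NOXA1 (0.0911), with 102, 64, 134 and 124 reads, followed by KLHDC7A (0.180) and SSPO (0.191). The distances rest on 4 libraries and are a description.

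Around the chromosome 4 cluster, the neighbours were compared with the ligands. Within 500 kb of EPGN, EREG, AREG or BTC lay 10 other protein-coding genes, of which 6 were tested, and 4 of these were past 2-fold higher in all 3 Mig libraries and 0 lower, beside 14.2% and 7.10% of all genes. The 4 were named after their values were seen. The chemokine genes CXCL5 and CXCL1 had 0 reads in the PBS library and 961, 1424 and 1206 reads (CXCL5) and 358, 498 and 372 reads (CXCL1) with normo-Migs, hypo-Migs and CD147KO-Migs. The chemokine gene CXCL3 had 27 reads for PBS and 110, 90 and 142 for the Mig libraries, and PARM1 had 0, 18, 10 and 14 reads. CXCL2 had 93, 153, 193 and 127 reads, and MTHFD2L, the gene next to EPGN, had 336, 288, 327 and 295 reads, with log2 fold changes against PBS of -0.20, -0.26 and -0.21. Within one cluster, EREG was thus lower, EPGN higher and AREG mixed against PBS, between a neighbour near 0 on one side and BTC on the other.

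**Figure D3:**
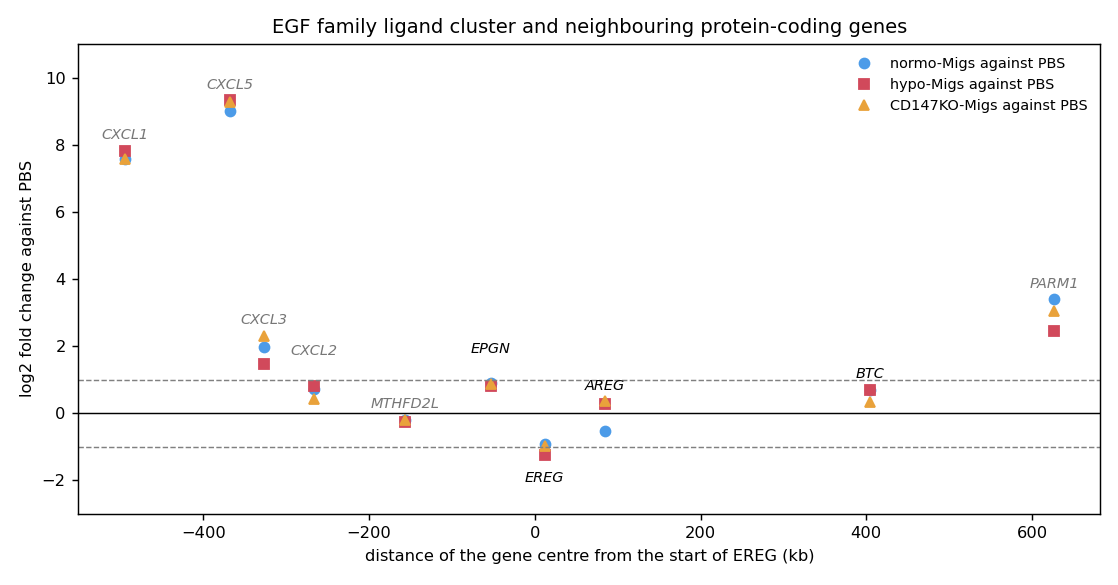
Log2 fold change of each Mig library against PBS (vertical axis) for the tested protein-coding genes around the ligand cluster, by the distance in kb of the gene's centre from the start of EREG (horizontal axis); ligand names are black, other genes grey, and dashed lines mark 2-fold. EREG is the lowest point and CXCL5 and CXCL1, at 0 reads in the PBS library and so dependent on the prior count, are the highest.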

How the data were processed

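RNA-seq was deposited for 4 libraries of MHCC-97H cells, 1 per condition, prepared with the SMARTER mRNA kit per the labels. The authors deposited raw read counts per gene and FPKM values per gene, which they computed from the reads by gene length and depth. The submitters' processing notes name CASAVA 1.8, fastp, HISAT2 2.0.5, featureCounts 1.5.0-p3 and hg38; strand handling is not given in the sources used here. Of the 58735 genes, 58676 matched GENCODE 29 by identifier, all of these with the same coordinates. The members and lists were chosen with earlier results of these data known.

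Counts were scaled by TMM over the 4 libraries (edgeR 4.0.16, R 4.3.3), those of 10 reads or more in any library were kept (19895 genes), and a prior count of 2 entered the log2 fold changes. A gene was called past 2-fold at a log2 fold change of at least 1 in size. With 1 library per condition no p-value is given; the study's DESeq2 criterion could not be applied. Exact Clopper-Pearson intervals (95%) of read ratios and Wilson intervals of levels used scipy 1.17.1. Pathway genes are named when they have at least 50 reads in a library and are past 2-fold in all 3 comparisons with PBS, up to 4 per list, beside the 9 members, the ERBB receptors, FGFR4, EGF and FGF21; the 3 nearest profiles are named per ligand. Other list genes named (ADAM17, CCND1, CYP7A1, CYP8B1, NRG3, FGFR2, NR1H4 and those past 2-fold in only 1 or 2 of the comparisons with PBS) fall outside this rule and were chosen after their values were seen. Alternatives were DESeq2 1.42.0 size factors, no scaling, other filters and prior counts, edgeR's tests with an assumed dispersion, the FPKM scale and protein-coding genes only. The fold change calculation was run on simulated counts with known changes between hypo-Migs and normo-Migs and no spread beyond counting error. That run checks the calculation and not how far replicates would differ. The share past 2-fold among genes averaging 50 reads or more was added after seeing the data.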

Additional observations from a re-analysis of the deposited data

How the results depend on the processing

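No paired analysis was possible because each condition had 1 library, and for the same reason no replicate could be left out. The log2 fold changes of the 8 genes stayed within their counting intervals in 494 of 504 recomputations. The 10 that moved were all on the log2(FPKM + 1) scale, which compresses low levels. Of the 504, 48 each came from edgeR's exact binomial test and its exact tests at coefficients of variation of 0.1 and 0.4. By construction, these settings changed the test and left the log2 fold changes of the 8 genes nearly as they were. The sign turned for KLB in normo-Migs against PBS, which was near 0 (0.02) and was -0.02 with total reads and no scaling factor and -0.0026 with protein-coding genes only, and for no other of these fold changes. The counts of genes past 2-fold are given in the order hypo-Migs against normo-Migs, hypo-Migs against CD147KO-Migs, normo-Migs against CD147KO-Migs, and normo-Migs, hypo-Migs and CD147KO-Migs against PBS. They were 1858, 1814, 1928, 6003, 6067 and 6033 among the 19895 genes tested. They were 5103, 4968, 5930, 10676, 9625 and 10759 among 31098 genes with no filter on reads, 253, 233, 264, 2684, 2744 and 2753 with at least 10 reads in every library, 56, 80, 66, 1619, 1674 and 1658 on the FPKM scale, and 639, 641, 683, 3799, 3822 and 3801 among protein-coding genes. With the exact binomial test of edgeR (adjusted p of at most 0.05) the first 3 were 975, 1003 and 977, with its exact test at an assumed coefficient of variation of 0.1 they were 259, 228 and 281, and at 0.4 all 6 were 0, 1, 2, 1535, 1633 and 1575. Of the 8 ligand and axis genes, 0, 0, 1, 2, 3 and 3 were past 2-fold in that order. With no filter, FGF19 entered, and hypo-Migs against CD147KO-Migs gave 1, normo-Migs against CD147KO-Migs 2 and CD147KO-Migs against PBS 4. At a coefficient of variation of 0.1 KLB was lost between normo-Migs and CD147KO-Migs (0 of 8), and at 0.4 all 6 counts were 0. On the FPKM scale normo-Migs against CD147KO-Migs gave 0, and the comparisons with PBS gave 1 (HBEGF), 1 (EREG) and 0. Depth limits KLB and FGF19, with at most 34 and 4 reads.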

Other observations

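Of the pathway lists, 9 genes were past 2-fold in only 1 or 2 of the 3 comparisons with PBS, and all 9 are given, with reads in the order PBS, normo-Migs, hypo-Migs and CD147KO-Migs. They were 1 of 14 tested genes of the shedding list, 5 of 15 early response genes and 3 of 7 bile acid and FXR genes. Of all genes, 30.2%, 30.5% and 30.3% were past 2-fold in the 3 comparisons. These shares include the genes past 2-fold in all 3 (14.2% higher and 7.10% lower). The share of all genes past 2-fold in only 1 or 2 is not given, so the counts have no matching share beside them. RHBDL2, a rhomboid protease of the shedding list, had 87, 22, 43 and 48 reads and log2 fold changes against PBS of -1.88, -1.19 and -0.85. Of the early response genes, 3 were higher and 2 lower. FOS had 384, 567, 859 and 894 reads, with log2 fold changes of 0.58, 0.94 and 1.19, EGR1 had 359, 667, 786 and 792 reads, with 0.91, 0.91 and 1.12, and JUNB had 2050, 4038, 4807 and 4113 reads, with 0.996, 1.011 and 0.983. FOSB had 90, 42, 51 and 70 reads, with -1.048, -1.006 and -0.374, and EGR3 had 9, 15, 9 and 0 reads. Of the bile acid and FXR genes, the nuclear receptor gene NR5A2 had 60, 120, 155 and 114 reads, with 0.996, 1.127 and 0.884, the transporter subunit gene SLC51B had 29, 20, 10 and 4 reads, with -0.48, -1.56 and -2.40, and the bile acid importer gene SLC10A1 had 2, 11, 1 and 1 reads.

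ADD2, the nearest tested protein-coding gene to TGFA, was higher than PBS in all 3 Mig libraries, with 0 reads for PBS and 627, 759 and 595 for normo-Migs, hypo-Migs and CD147KO-Migs, at least 212-fold, 218-fold and 195-fold higher than the 3 reads that the PBS library allows. The log2 fold changes of TGFA were 0.13, 0.27 and 0.37. RPL9, the gene next to KLB, was also past 2-fold higher in all 3, at 1.19, 1.21 and 1.17. Of the tested protein-coding genes within 500 kb, 3 of 11 around TGFA, 2 of 11 around KLB and 6 of 26 around HBEGF were past 2-fold higher in all 3 Mig libraries and 0 lower, beside 14.2% and 7.10% of all genes. Of those around HBEGF, NRG2, PCDHA3, PCDHA4 and PCDHA5 had 0 reads in the PBS library. PCDHA5, named after its values were seen, had 10, 4 and 8 reads with normo-Migs, hypo-Migs and CD147KO-Migs. With hypo-Migs it was at least 1.15-fold higher than the 3 reads that the PBS library allows, so that its call there rests on the prior count.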
